A study of Mus musculus with 2 samples.

Results

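The genes described here encode the extracellular matrix, namely the collagens, the laminins and 10 further matrix glycoproteins, proteoglycans and inhibitors of matrix proteases (Sparc, Fn1, Fbn1, Nid1, Nid2, Hspg2, Timp1, Timp2, Timp3 and Lum). They were chosen by name, as every probe labelled with a collagen or laminin symbol or with one of those 10 symbols. This gave 90 of the 55681 probes on the array, for 63 of its 36413 gene names. Of the 63 names, 41 were collagens, 11 were laminins and 10 were the other matrix genes. The remaining name, Col4a3bp, met the naming rule but encodes a ceramide transporter and no matrix protein.

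The arrays compared fetal liver erythroid progenitors of C57BL/6 mice at stage E14.5 of embryonic development. The cells were negative for lineage markers (Lin-), had been transduced either with ESlncRNA or with the vector, and were sorted as GFP+ before total RNA was taken. ESlncRNA is a long noncoding transcript of the erythroid lineage that is also called lincRNA-EPS, and the question was how extra ESlncRNA changed gene expression in these progenitors. There were 2 arrays, replicates 1 and 2. Each held 1 ESlncRNA sample in the red dye Cy5 and 1 vector sample in the green dye Cy3. With no dye swap, a dye effect of a probe enters its ratio on both arrays alike and cannot be told apart from an effect of ESlncRNA. In bulk RNA of this kind, fewer cells of a type and less RNA per cell cannot be told apart. Whether the replicates are separate cultures or separate animals is not stated in the labels, so the p-values measure the spread between these arrays, which may be technical. For 120 probes with at least 10 usable spots on each array, the arrays differed by a median of 0.024 (log2), where noise between spots of a single array would give 0.029. Each condition may stand for 1 RNA sample, but a median over these probes can hide single genes that differ and cannot settle this. Of the erythroid markers counted below, Slc4a1 had log2 ratios of ESlncRNA over vector of -0.45 on replicate 1 and 1.48 on replicate 2. Alas2 had -0.017 and 0.77. The source of these differences was not tested.

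Collagens are built from alpha chains wound into a helix. The fibrillar types form the fibres of connective tissue, and type 4 forms the network of basement membranes. Laminins join an alpha, a beta and a gamma chain and are linked to the type 4 network by nidogens and by the proteoglycan perlecan. In the fetal liver such matrix surrounds vessels and stromal cells, and erythroid progenitors bind fibronectin through integrins.

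The chains of type 4 collagen, Col4a1 and Col4a2, are a pair of members whose promoter windows overlap. Their windows are printed because both genes fell on these arrays, as described with the basement membrane genes. They are shown with those of Sparc, a bright member with a large fall, and Col5a1, the bright member that rose. The sequences are RefSeq's, assembly GRCm38.p6, each from 250 bases before the gene's start to 50 after it and each read on the gene's own strand. Capitals in the type 4 windows mark the 78 bases that both hold (chr8:11312777-11312854), and the starts of the genes lie 21 bases apart on opposite strands. Capitals in the Col5a1 window mark matches to the GC box, GGGCGG, on either strand. The Col4a1 window is chr8:11312777-11313076 on the reverse strand, and that of Col4a2 is chr8:11312555-11312854 on the forward strand. The Sparc window is chr11:55420031-55420330 on the reverse strand, and that of Col5a1 is chr2:27886175-27886474 on the forward strand.
Col4a1: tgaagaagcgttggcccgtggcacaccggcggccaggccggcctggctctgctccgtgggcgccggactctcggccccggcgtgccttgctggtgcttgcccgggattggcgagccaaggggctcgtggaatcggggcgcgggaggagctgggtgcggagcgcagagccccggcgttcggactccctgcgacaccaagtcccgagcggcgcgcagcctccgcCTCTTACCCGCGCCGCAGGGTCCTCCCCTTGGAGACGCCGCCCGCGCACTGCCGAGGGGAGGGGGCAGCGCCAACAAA
Col4a2: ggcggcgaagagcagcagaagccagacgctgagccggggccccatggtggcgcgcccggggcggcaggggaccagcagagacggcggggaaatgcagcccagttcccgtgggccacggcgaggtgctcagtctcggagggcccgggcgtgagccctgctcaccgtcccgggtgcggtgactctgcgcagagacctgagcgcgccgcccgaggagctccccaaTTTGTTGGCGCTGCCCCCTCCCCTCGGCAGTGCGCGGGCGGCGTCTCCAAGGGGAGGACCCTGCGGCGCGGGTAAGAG
Sparc: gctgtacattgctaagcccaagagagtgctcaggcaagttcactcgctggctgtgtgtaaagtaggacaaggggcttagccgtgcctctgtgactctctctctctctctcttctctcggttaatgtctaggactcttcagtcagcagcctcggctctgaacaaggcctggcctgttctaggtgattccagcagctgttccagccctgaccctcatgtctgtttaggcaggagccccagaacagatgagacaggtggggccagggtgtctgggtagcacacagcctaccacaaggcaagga
Col5a1: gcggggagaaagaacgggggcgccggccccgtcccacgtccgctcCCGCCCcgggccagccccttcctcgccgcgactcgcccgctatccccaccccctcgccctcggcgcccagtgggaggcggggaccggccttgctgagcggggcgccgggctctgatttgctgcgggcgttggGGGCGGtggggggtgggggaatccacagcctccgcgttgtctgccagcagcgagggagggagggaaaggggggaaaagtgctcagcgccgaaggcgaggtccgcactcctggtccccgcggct

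Of the 62 matrix genes, 45 had a window in the RefSeq table, and 4 motifs were searched on both strands. The GC box was in 30 of the 45 windows (66.7%), against 35.9% of all 27025 windows in the table, which also hold noncoding genes. The letters CCAAT were in 16 of the 45 (35.6%), against 37.9% of all windows. The letters TATAAA were in 5 (11.1%, against 14.2%) and the letters AGATAA, bound by GATA factors, in 2 (4.4%, against 11.4%). The Sparc window held none of these letters. The Col4a2 window held 3 GC boxes and 1 CCAAT, and that of Col4a1 held 1 of each, some of them in the shared bases. These matches describe the letters of the windows and bear on no factor.

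All ratios below are log2 ratios of ESlncRNA over vector, so a negative value means lower with ESlncRNA. They come from intensities corrected for background with an offset of 50, which pulls the ratios of dim probes toward 0. A probe was used where at least 1 of its channels was well above background on each array, which was so for 37 of the 90 probes (41.1%), standing for 33 genes. A gene is given by its brightest such probe. Of the 37 probes, 22 were above background in both channels on both arrays. In 12 the ESlncRNA channel was above background on neither array, in 2 it was so on 1 array, and in 1, that of Col6a6, the vector channel was above background on neither. The ESlncRNA channel was thus above background on both arrays for 23 member probes, and the vector channel for 36. Where a channel was above background on neither array, only a limit of the fold is given, marked by "at least". It divides the bright channel by the dim one or by the weakest signal above background on that array, whichever is larger. With no dye swap it may carry dye bias. It is a limit under this processing only. Median centring gave some smaller changes, as for Col4a1, with a ratio of -2.28 there against -2.53 here.

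Most measured matrix genes were lower with ESlncRNA. Of the 33 genes, which include Col4a3bp, 25 fell, 3 rose (Col5a1, Col6a6 and Lama3) and 5 did not pass (limma, adjusted p under 0.05 over all 26790 probes tested). Without Col4a3bp, 24 of 32 matrix genes fell. Over all 19870 genes tested, 36.8% fell and 26.3% rose. By probe, 28 of 37 fell and 3 rose, where 35.8% of all probes tested fell and 25.9% rose. The share of higher calls among all called probes was 41.9% here, and 77.7% with each array centred on its median, where 22 of the 37 member probes fell and 8 rose. The filter keeps a probe for being bright in either channel, so a count over the genes kept is not one over all 63. With no filter 36 of the 90 probes fell and 5 rose, against 18% and 13.3% of all probes. With both channels required, 16 of 22 fell and 2 rose, against 33.0% and 29.0%. The median ratio of the 37 probes was -0.60, and that of all probes tested was -0.03.

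The size of the fall differed widely among the members. It was below -2 for 5 genes (Sparc, Timp2, Col4a1, Fn1 and Col1a1), between -2 and -1 for another 5 (Lamb1-1, Nid1, Col4a2, Hspg2 and Timp1) and above -1 for 15. These sizes depend on the offset of 50 where the ESlncRNA channel was dim, as it was for 10 of the 25. From the processed intensities 11 genes were below -2, the further ones being Nid1 (-4.21), Lamb1-1 (-3.61), Col5a3 (-2.74), Fbn1 (-2.71), Lamb2 (-2.68) and Nid2 (-2.66). A fall of at least 2-fold on each array was met by 9 member genes and a rise of that size by 0, where 8.1% and 0.604% of all genes met those sizes. Between the arrays the members moved little, with a median SD of 0.061 and the highest, 0.36, in Timp1. By sign alone, 29 of the 37 probes were below 0 on both arrays, 5 were above 0 on both and 3 had opposite signs.

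**Figure D1:**
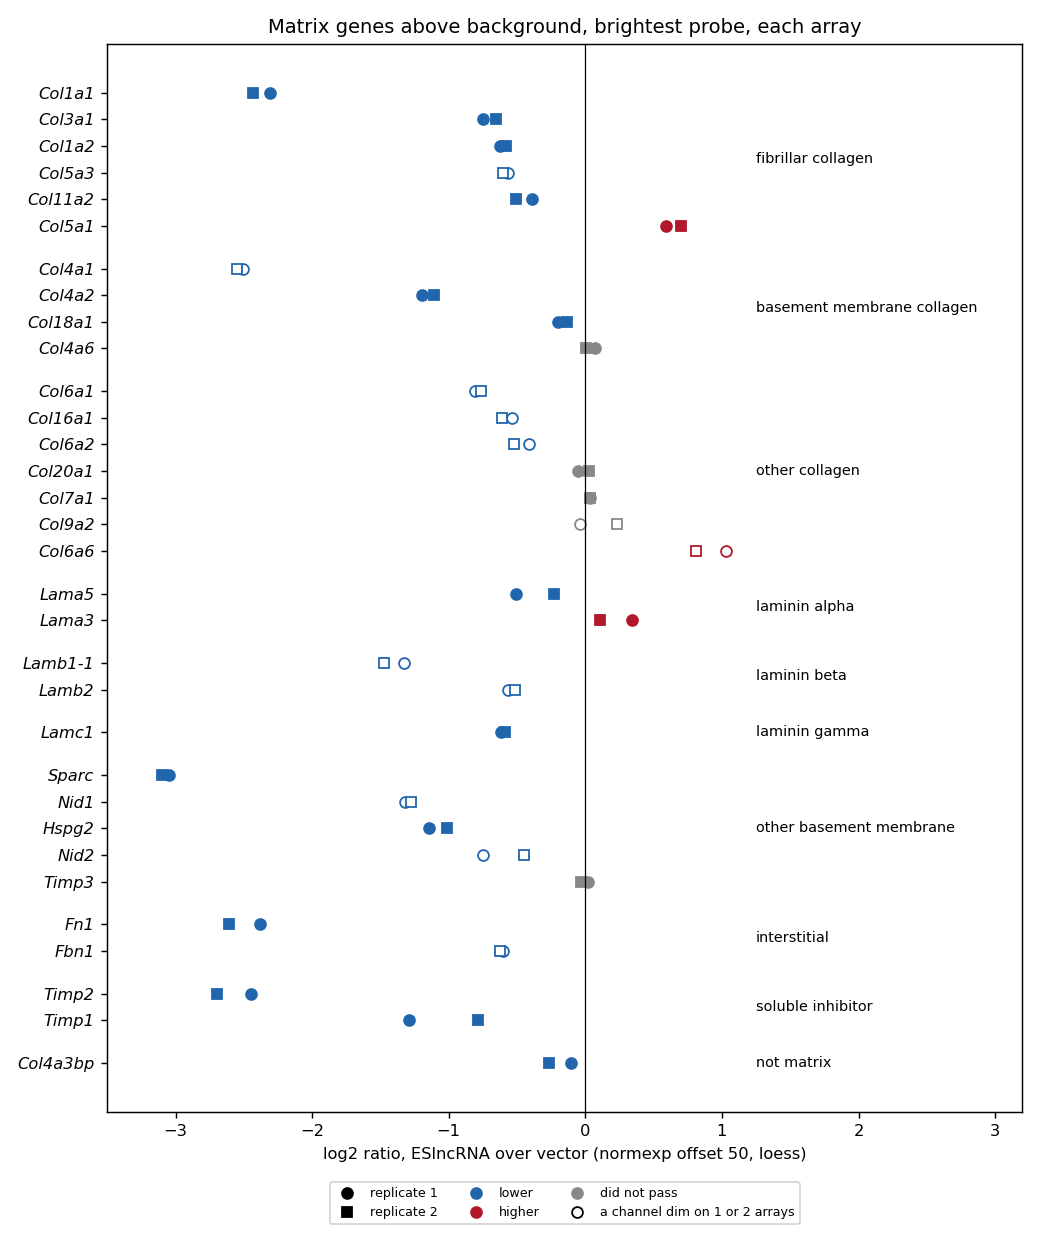
Log2 ratio of ESlncRNA over vector (x axis) of the matrix member genes measured, by role and with 1 not shown, with a circle for replicate 1 and a square for replicate 2. Blue marks genes that fell, red the 3 that rose and grey the 5 that did not pass, and open symbols mark probes with a dim channel. Sparc lies farthest to the left at -3.05 and -3.10. With median centring the means of the blue Col18a1 and Col4a3bp and of the grey Timp3 and Col20a1 would lie above 0.

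Of the basement membrane genes, Sparc had the lowest ratio with the offset of 50, though from the processed intensities Nid1, Col4a1 and Lamb1-1, all dim with ESlncRNA, were lower. Sparc, also called osteonectin, a secreted glycoprotein that binds collagen and calcium, had processed intensities of 515 and 498 with ESlncRNA, against 4387 and 4288 with vector. Processed intensities are the scanner software's values after background subtraction and dye normalization, in replicates 1 and 2, and they compare channels of 1 probe and not levels of different genes. Both ESlncRNA channels were far below both vector channels. The ratio was -3.05 on replicate 1 and -3.10 on replicate 2, a mean of -3.07 ± 0.035 (SD, n = 2 arrays) or 8.42-fold lower, with a limma adjusted p of 7.85e-08. This probe lies on chromosome 11 from 55208939 to 55208998 (mm9, reverse strand). A dimmer Sparc probe at 55208003 to 55208061 also fell, at -1.14, but its ESlncRNA channel was not above background, so its bound was at least 1.86-fold. The probes fell alike in direction and differed in size.

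Type 4 collagen, the network of basement membranes, fell in both of its widely expressed chains. Col4a1 had processed intensities of 11.7 and 12.8 with ESlncRNA, not above background, against 201 and 208 with vector. Its ratios were -2.51 and -2.55 (mean -2.53 ± 0.031, adjusted p = 1.38e-07), and its bound was at least 5.76-fold lower. Its probe, on chromosome 8 from 11199009 to 11199068 (mm9, reverse strand), was printed several times on each array, which shows the spread within an array. On replicate 1 its 10 spots ran from -2.81 through a median of -2.49 to -2.29. The vector channel was above background in all 10 and the ESlncRNA channel in 3. On replicate 2 its 7 unmarked spots ran from -2.64 through -2.56 to -2.46, with the vector channel above background in 7 and the ESlncRNA channel in 2. Every spot was thus below -2 on both arrays, and the spots of the arrays overlapped.

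**Figure D2:**
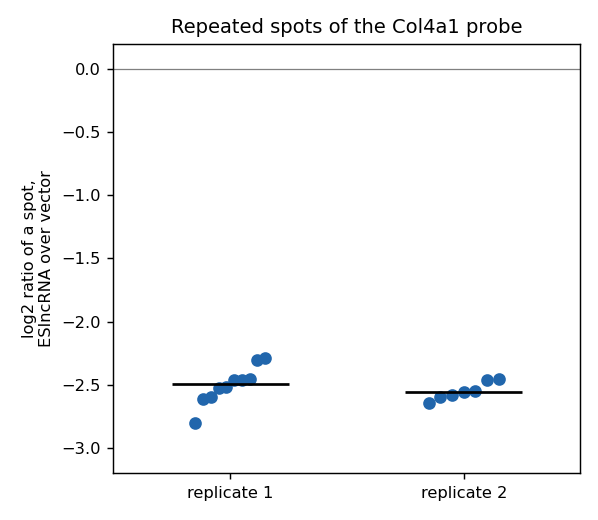
Log2 ratio of ESlncRNA over vector (y axis) of each unmarked spot of the Col4a1 probe on the arrays of replicates 1 and 2, 10 and 7 spots, with a bar at the median. All spots lie between -2.81 and -2.29.

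Col4a2 had processed intensities of 67.3 and 75.2 with ESlncRNA, against 158 and 165 with vector. Its ratios were -1.19 and -1.11 (mean -1.15 ± 0.061, 2.22-fold lower, adjusted p = 4.51e-06). The ESlncRNA channels were again below both vector channels, and here both were above background. The ratio of Col4a1 was lower than that of Col4a2 by -1.31 on replicate 1 and -1.44 on replicate 2, a difference that was not tested and in which the Col4a1 value rests on a dim channel. Their probes lie at the far ends of the genes, 249.8 kb apart. Of the other type 4 chains, Col4a6 had 0.069 and 0.0033 and did not pass (adjusted p = 0.551), though it had 0.38 from the processed intensities and 0.23 with median centring, both past the threshold. The chains Col4a3, Col4a4 and Col4a5 were not above background on both arrays in any channel.

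Col18a1, whose C-terminal piece is endostatin, differed little between the channels. Its brightest probe had processed intensities of 1606 and 1473 with ESlncRNA, against 1628 and 1497 with vector. Its ratio of -0.17 ± 0.046 passed (adjusted p = 0.0246), but with median centring it was 0.40. A second probe had -0.31 and fell as well. The other multiplexin collagen, Col15a1, was not above background.

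The genes that link laminin to type 4 collagen fell too. Nid1, or nidogen-1, had ratios of -1.32 and -1.28 (mean -1.30 ± 0.032, adjusted p = 2.06e-06). Its processed intensity was 57.9 and 49.3 with vector, and with ESlncRNA it was not above background on either array, so it was at least 2.06-fold lower. Nid2 had -0.75 and -0.45 and was at least 1.34-fold lower (mean -0.60 ± 0.22, adjusted p = 7.6e-04). Hspg2, the core protein of perlecan, had processed intensities of 80.5 and 98.8 with ESlncRNA, against 177 and 193 with vector. Its ratios of -1.14 and -1.02 gave a fall of 2.11-fold (adjusted p = 8.27e-06). Both nidogens and perlecan were thus lower with ESlncRNA on both arrays. Timp3, the inhibitor of metalloproteinases that stays bound to matrix, had processed intensities of 685 and 678 with ESlncRNA, against 602 and 629 with vector. It did not pass, with ratios of 0.021 and -0.033 (adjusted p = 0.926), and with median centring it was 0.47.

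Among the laminins, 6 of 11 genes were measured. Of these 5 fell, and 1, Lama3, rose, where 36.8% and 26.3% of all genes did so. Lamb1-1, the older name of the beta 1 chain gene Lamb1, had ratios of -1.33 and -1.48 (mean -1.40 ± 0.10, adjusted p = 2.80e-06). Its vector channel had 71.1 and 68.8, its ESlncRNA channel was not above background, and it was at least 2.55-fold lower. Lamb2, the beta 2 chain, had -0.57 and -0.51 and was at least 1.23-fold lower. The beta chains thus both fell, though both bounds rest on a dim ESlncRNA channel.

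Lamc1, the gamma chain of most laminins, had processed intensities of 640 and 636 with ESlncRNA, against 846 and 838 with vector, and ratios of -0.62 and -0.59 (1.52-fold lower, adjusted p = 7.56e-05). With median centring its ratio was -0.13 and did not pass (adjusted p = 0.160).

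Of the alpha chains, Lama5, the broadly expressed alpha 5 chain, had ratios of -0.51 and -0.23 (mean -0.37 ± 0.19, adjusted p = 0.00493). Its processed intensities were 100.2 and 118 with ESlncRNA, against 126 and 115 with vector, so that they overlapped, and from these intensities the ratio did not pass (adjusted p = 0.406). It also missed the threshold with median centring (-0.077, adjusted p = 0.399) and in the authors' deposited table (adjusted p = 0.0781). Lama3, the alpha chain of epithelial laminin, had 38.5 and 38.4 with ESlncRNA, against 20.4 and 26.6 with vector. Its ratios were 0.34 and 0.11 (mean 0.22 ± 0.16, adjusted p = 0.0249), and in the authors' deposited table its mean of 0.34 did not pass limma (adjusted p = 0.0972). The call of Lama3 was kept in only 5 of the 8 other settings with a test. Lama1, Lama2, Lama4, Lamb3 and Lamc3 were not above background on both arrays in any channel.

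The fibrillar collagens, with 6 of 11 genes measured, gave 5 that fell and 1 that rose, where 36.8% and 26.3% of all genes did so. Col1a1, the alpha 1 chain of type 1 collagen, had processed intensities of 20.4 and 12.8 with ESlncRNA, against 178 and 163 with vector. Its ratios were -2.31 and -2.43 (mean -2.37 ± 0.086, 5.18-fold lower, adjusted p = 2.51e-07). Its partner chain Col1a2 had 1116 and 1156 with ESlncRNA, against 1491 and 1581 with vector, and fell less. The ratios of Col1a2 were -0.62 and -0.58 (1.52-fold lower, adjusted p = 7.88e-05), and with median centring it had -0.05 and did not pass (adjusted p = 0.570). Between these partner chains the ratios differed by -1.69 and -1.85 on replicates 1 and 2, Col1a1 being the lower, a difference that was not tested. The probes are on chromosome 11 from 94813115 to 94813174 (Col1a1) and on chromosome 6 from 4490619 to 4490678 (Col1a2), both mm9 and forward strand.

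Col3a1, the type 3 chain that accompanies type 1 in reticular fibres, had 17.1 and 16.3 with ESlncRNA, against 44.8 and 41.1 with vector. It was 1.62-fold lower, with ratios of -0.75 and -0.65 (adjusted p = 5.03e-05). The minor chains Col5a3 and Col11a2 fell as well, by ratios of -0.58 (at least 1.27-fold) and -0.45 (1.37-fold). Col5a1, a chain of the type 5 collagen that starts and limits type 1 fibrils, went the other way. It was bright in both channels, with processed intensities of 5684 and 4938 with ESlncRNA, against 3408 and 2859 with vector. Both ESlncRNA channels exceeded both vector channels, with ratios of 0.59 and 0.70 (mean 0.65 ± 0.077, 1.56-fold higher, adjusted p = 8.39e-05). Its probe lies on chromosome 2 from 27892892 to 27892951 (mm9, forward strand). The other type 5 chain tested, Col5a3, had the lower ratio, and its ESlncRNA channel was dim. The difference was not tested. Col5a2 was not above background. Col2a1, Col11a1, Col24a1 and Col27a1 were also not above background.

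Of the 22 remaining collagen genes, 7 were measured. Of these 3 fell, 1 rose and 3 did not pass (median -0.013), where 36.8% of all genes fell and 26.3% rose. Col6a1 and Col6a2, chains of the beaded-filament collagen type 6, had mean ratios of -0.79 (at least 1.73-fold lower, adjusted p = 2.26e-05) and -0.47 (at least 1.19-fold lower). Col16a1, a collagen that associates with fibrils, had -0.57 (at least 1.49-fold lower). All 3 had an ESlncRNA channel not above background and a vector channel between 10.3 and 41.6. Col6a6, another type 6 chain, was the reverse. Its processed intensity was 43.8 and 31.2 with ESlncRNA, and with vector it was not above background on either array. Its ratios of 1.03 and 0.81 (mean 0.92 ± 0.15, adjusted p = 4.17e-05) gave at least 1.82-fold higher.

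Col7a1, the anchoring fibril collagen of skin, had processed intensities of 149 and 136 with ESlncRNA, against 116 and 107 with vector. It did not pass after loess (0.03, adjusted p = 0.555), and it had 0.35 from the processed intensities and 0.36 with median centring, both past the threshold. Col9a2 and Col20a1 did not pass, with mean ratios of 0.097 and -0.013. A second Col20a1 probe had -0.15 and did not pass either. The other 15 genes of this kind, namely Col6a4, Col8a1, Col8a2, Col9a1, Col9a3, Col10a1, Col12a1, Col13a1, Col14a1, Col17a1, Col19a1, Col22a1, Col23a1, Col25a1 and Col28a1, were not above background on both arrays in any channel. Over all members, 53 probes were so. Of these, 48 were above background nowhere and 5 (Col4a4, Col4a5, Lama4, Lamb3 and Col23a1) in the vector channel of 1 array. The 48 include further probes of Col4a6, Col6a6, Col16a1, Lama3, Hspg2 and Nid1, genes that are given by another probe.

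The interstitial glycoproteins both fell where measured. Fn1, or fibronectin, the glycoprotein that cells grip through integrins, had processed intensities of 131 and 118 with ESlncRNA, against 796 and 757 with vector. The groups lay far apart, and its ratios were -2.38 and -2.61 (mean -2.50 ± 0.16, 5.64-fold lower, adjusted p = 4.48e-07). Its probe is on chromosome 1 from 71632116 to 71632175 (mm9, reverse strand). Fbn1, the fibrillin of microfibrils, had ratios of -0.60 and -0.62 and was at least 1.22-fold lower (adjusted p = 6.89e-05). Lum, the small proteoglycan lumican that coats collagen fibrils, was not above background in any channel.

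The inhibitors of metalloproteinases that are secreted in soluble form fell, and by different amounts. Timp2 had processed intensities of 36.7 and 27.6 with ESlncRNA, against 333 and 321 with vector. Its ratios were -2.45 and -2.69 (mean -2.57 ± 0.17, 5.94-fold lower, adjusted p = 4.81e-07), on chromosome 11 from 118163146 to 118163205 (mm9, reverse strand). A second Timp2 probe had -1.84 and -1.85, with the ESlncRNA channel above background on 1 array only. Timp1 had 17.2 and 31.0 with ESlncRNA, against 82.0 and 70.3 with vector. It showed the widest spread of the 33 genes, with ratios of -1.29 and -0.78 (mean -1.04 ± 0.36, 2.05-fold lower, adjusted p = 3.23e-04). From the processed intensities its ratio was -1.72 and did not pass (adjusted p = 0.0557). The 3 inhibitors thus ran from a clear fall in Timp2 through Timp1 to no call in Timp3. Timp2 was lower than Timp3 by -2.47 and -2.66, which was not tested.

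**Figure D3:**
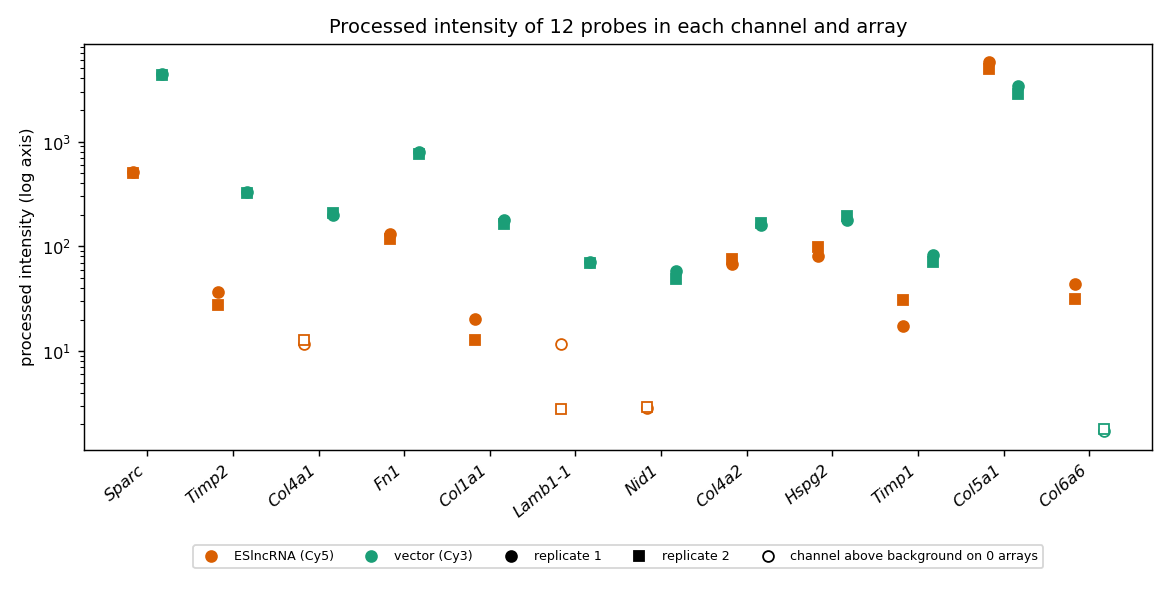
Processed intensity (y axis, log scale) of 12 member probes on each array, with ESlncRNA in orange at the left of each pair and vector in green at the right. Circles are replicate 1 and squares replicate 2, and open symbols mark channels above background on neither array. ESlncRNA lies below vector for 10 of the probes and above it for Col5a1 and Col6a6.

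Col4a3bp, the ceramide transporter gene caught by its name, had processed intensities of 196 and 112 with ESlncRNA, against 188 and 122 with vector. Its ratio was -0.18 ± 0.11 (adjusted p = 0.0301), and with median centring it was 0.16.

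Genes that process or bind matrix were counted in 4 further lists, written by function. The counts stand against 36.8% of all genes that fell and 26.3% that rose. In 6, 10, 7 and 5 genes of these lists, in the order below, the ESlncRNA channel was above background on neither array. With both channels required 10 of 16, 11 of 15, 8 of 10 and 7 of 14 fell, against 33.0% of all probes. Then 1, 2, 0 and 4 rose, against 29.0%. Of 25 genes that fold, cut, hydroxylate or cross-link collagen, 22 were measured, and 16 fell, 1 rose and 5 did not pass, with a median of -0.57. Serpinh1, the collagen chaperone Hsp47, was 4.01-fold lower (ratios -1.94 and -2.06). Pcolce, which enhances cleavage of the procollagen C-terminus, was 3.31-fold lower, and P3h3, a prolyl 3-hydroxylase family member, at least 2.15-fold lower. P4ha2, a prolyl 4-hydroxylase subunit, rose slightly (0.23 ± 0.0019, adjusted p = 0.00575).

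Of 40 other matrix glycoproteins and proteoglycans, 27 were measured, and 22 fell, 2 rose and 3 did not pass (median -0.63). Tgfbi, a secreted matrix protein induced by TGF-beta, was 12.3-fold lower (-3.66 and -3.59), Thbs1, or thrombospondin-1, 6.02-fold lower, and Srgn, the granule proteoglycan serglycin, 5.18-fold lower. Ltbp1, which tethers latent TGF-beta to matrix, rose 1.99-fold (0.91 and 1.08), and Agrn, or agrin, 1.37-fold. Of 31 matrix proteases and their other inhibitors, 18 were measured, and 16 fell, 0 rose and 2 did not pass (median -0.73). The lowest were Mmp8, the collagenase of neutrophils, at 28.7-fold lower (-4.87 and -4.82), Adam15 at 6.74-fold and Plaur, the urokinase receptor, at 5.64-fold.

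Of 32 matrix receptors, 20 were measured, and 12 fell, 4 rose and 4 did not pass (median -0.41). Itga6, the alpha subunit of laminin-binding integrins, was 9.81-fold lower, with ratios of -3.29 and -3.30. Itgb3, a beta subunit of fibronectin and vitronectin receptors, was 5.34-fold lower, and Itgb5, another vitronectin receptor subunit, 3.90-fold lower. The receptors named next were chosen after their values were seen. The 4 that rose were the syndecans Sdc2 (0.77) and Sdc1 (0.54), Itga4 (0.32), an alpha subunit that binds fibronectin, and Dag1 (0.31), the dystroglycan gene. Itga5 (0.10) and Itgb1 (0.068), the subunits of the classical fibronectin receptor, did not pass. Of all genes tested the median was -0.03, and 36.8% of them fell and 26.3% rose.

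**Figure D4:**
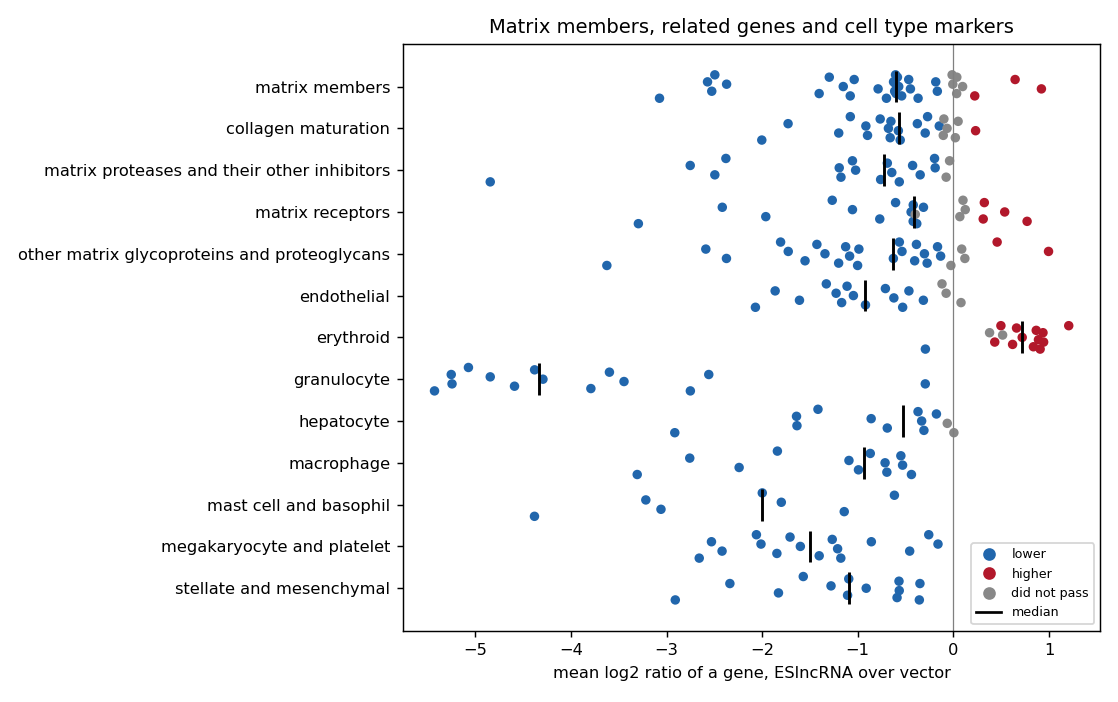
Mean log2 ratio of ESlncRNA over vector (x axis) of every measured gene of the matrix members, of the 4 related lists and of 8 lists of cell type markers, with a bar at each median. Blue marks genes that fell, red those that rose and grey those that did not pass. The medians run from -4.34 (granulocyte) to 0.72 (erythroid), and that of the matrix members is -0.60.

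The sorted cells carried erythroid markers in both channels, and most measured markers of the other cell types listed fell with ESlncRNA. The counts below stand against 36.8% of all genes that fell and 26.3% that rose. A marker bright with vector alone passes the filter on that channel, so the counts with both channels required are given too. Those stand against 33.0% of all probes that fell and 29.0% that rose under that filter. Of 15 erythroid genes measured 12 rose, 1 (Sptb, -0.29) fell and 2 (Slc4a1 and Alas2) did not pass, all with both channels above background. Their summed processed intensity was 183909 to 204609 with ESlncRNA, against 123767 to 149974 with vector, and the brightest were Hba-a1 (0.43), an alpha globin, and Epor (0.62), the erythropoietin receptor. Such a sum, here and for the lists below, follows the brightest probes of its list and says little of the dimmer ones. Of 17 endothelial genes 14 fell and 3 did not pass (median -0.92, range -2.07 to 0.080), with sums of 10571 to 10868 with ESlncRNA, against 11954 to 12337 with vector. In 9 of the 17 the ESlncRNA channel was above background on neither array. With both channels required 4 of 7 fell, and with median centring 13 of 17 fell and 4 rose. The brightest, Egfl7, fell by 0.31 and Eng had -0.12 and did not pass, and Sox18 was not above background.

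All 13 stellate and mesenchymal markers measured fell (median -1.09), led in brightness by Vim at -2.91 and Acta2 at -1.83. In 6 of the 13 the ESlncRNA channel was dim, and with both channels required 6 of 6 fell. Their sums were 2047 to 2151 with ESlncRNA, against 11463 to 12106 with vector. The other 8 of that list, Pdgfra, Rgs5, Lrat, Reln, Lhx2, Tcf21, Foxf1 and Meox2, were not above background on both arrays in any channel, and Lrat, Reln and Lhx2 are known as markers of stellate cells. All 16 megakaryocyte and platelet markers fell (median -1.50, and 15 of 15 with both channels required), with Pf4 at -1.85 and F2r at -0.86 the brightest. Their sums were 13883 to 14670 with ESlncRNA, against 43392 to 44212.5 with vector.

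All 12 macrophage markers measured fell (median -0.93), the brightest being Csf1r at -3.31 and Lyz2 at -2.76. In 7 of the 12 the ESlncRNA channel was dim, and with both channels required 5 of 5 fell. Their sums were 604 to 623 with ESlncRNA, against 5216 to 5221 with vector, and C1qa, Timd4, Cd163 and Siglec1 were not above background. All 14 granulocyte markers measured fell (median -4.34), with S100a9 at -5.25 and Mpo at -4.38 the brightest, and all 14 had both channels above background. Their sums were 40151 to 44322 with ESlncRNA, against 580840 to 629140 with vector. Mmp8 stands both in that list and among the proteases.

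All 7 mast cell and basophil markers measured fell (median -2.0, with Cpa3 at -4.38 and Hdc at -3.22), with sums of 1701 to 1846 with ESlncRNA, against 17715 to 18117 with vector. Mcpt1, Mcpt4, Tpsab1 and Fcer1a were not above background. With both channels required 5 of 5 mast cell and basophil markers fell. Of 12 hepatocyte markers 10 fell and 2 did not pass (median -0.53, with Trf at -2.91 and Dlk1 at -1.42), with sums of 1695 to 1765 with ESlncRNA, against 4811 to 5005 with vector, and Apob, Fga and Cps1 were not above background. With both channels required 7 of 9 hepatocyte markers fell. The part of all these markers in the values of the matrix genes was not tested.

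The size of a ratio depended on the processing most where a channel was dim. Over all settings run, including each array alone, Sparc, with both channels above background, ran from -3.13 to -2.51, and Fn1 from -2.74 to -2.09. Nid1, with a dim ESlncRNA channel, ran from -4.21 to -1.21, and Col4a1 from -4.10 to -2.28. Col6a6, with a dim vector channel, ran from 0.81 to 4.39. The direction of these 5 genes was the same in each setting.

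**Figure D5:**
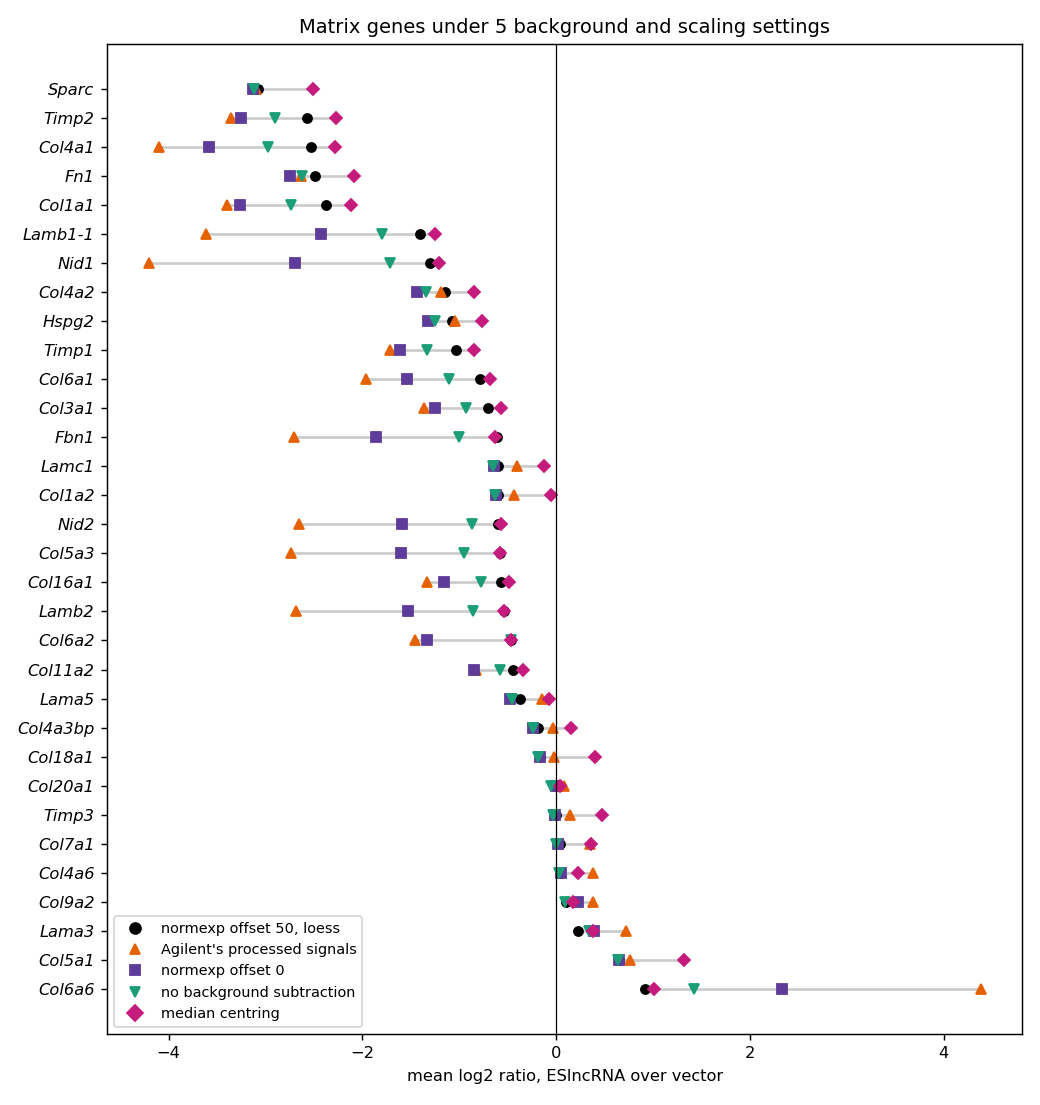
Log2 ratio of ESlncRNA over vector (x axis) of the measured members (1 not shown), averaged over the arrays, under 5 settings of background correction and scaling. The symbols of Sparc lie close together and those of Nid1 and Col6a6 far apart. Those of Col18a1, Timp3, Col4a3bp and Col20a1 cross 0 with median centring, and Timp3 and Col20a1 also with processed intensities. Col7a1 falls just below 0 with no background subtraction (-0.004).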

How the data were processed

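Per the file headers, the scans were read with Feature Extraction 10.1.1.1. From the deposited files the spot intensities were taken, as mean signal and median local background of each channel. The software's processed intensities, from which background and dye bias had been removed per the file headers, were an alternative. The software's own log10 ratios (Cy5 over Cy3), deposited too, only checked the direction (r = 0.985 and 0.992 with the processed ratios). The authors also deposited log2 values made with limma, per the submitters' processing notes, with a version not given in the sources used here. Their medians were -0.02 and -0.01, and they correlated at r = 0.99996 and 0.99996 with loess ratios made here without background subtraction, from which scale and direction were taken.

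Here background was corrected with normexp (offset 50) and ratios were normalized with loess, control spots and marked outliers having weight 0 (284 and 308 of 59305 spots, with 0 saturated), in R 4.3.3 with limma 3.58.1. Spots of a probe were averaged. A probe was above background in a channel where at least 0.5 of its unmarked spots were. The mean ratio was tested with limma (degrees of freedom: 1 residual, 5.27 prior), with Benjamini-Hochberg adjustment over 26790 probes and a threshold of 0.05. The arrays correlated at r = 0.980. Above background were 45.6% and 44.4% of spots with ESlncRNA, against 52.1% and 49.1% with vector. The median net signal was 18.6 and 23.3 with ESlncRNA, against 14.2 and 20.2 with vector. The number of arrays limits the precision. Both lay on 1 slide scanned together, so slide and scan were not tested as batches. The labels give 100 ng of input RNA for replicate 2. Each array pairs the RNAs of 1 replicate number, so the ratio itself is the paired analysis. Names came from RefSeq (GRCm38.p6) by accession for 26413 probes, by symbol for 3859 and by an older symbol for 742, and 24667 kept the file's name. Array coordinates are mm9. The steps were tested on simulated data in which few probes changed, so normalization with many changed probes was not tested.

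All member genes with a probe above background are named, except 1 that is counted but not reported here. Each related list gives its 3 largest changes and those called against its majority if 3 or fewer, and each marker list its 2 brightest genes. Slc4a1 and Alas2 were named after their values were seen, for the difference between the arrays. The members and lists were chosen with earlier results of these data known.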

Additional observations from a re-analysis of the deposited data

How the results depend on the processing

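Of the 33 genes measured, 23 kept their call in every setting with a test (up to 8), among them 19 of the 25 that fell. Processed intensities gave a median member ratio of -1.28, 5 probes and 5 genes higher. Normexp with offset 0 gave a median of -1.25, no background subtraction gave -0.86 and the authors' deposited log2 table gave -0.85. Median centring gave -0.48, 8 probes and 7 genes higher. With no filter the median was -0.093 and 5 probes were higher. With both channels required it was -0.53, and 16 of 22 probes and 15 of 21 genes were lower, against 33.0% of all probes. Without replicate 1 or without replicate 2 the medians ran from -0.60 to -0.59. Without the replicate block, that is with the pairing within arrays ignored, 26 probes were lower and 2 higher.

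The median of all probes moved from -0.03 to 0.13 with processed intensities and 0.31 with median centring. The member median lay below it by -0.57 after loess, by -1.40 with processed intensities and by -0.79 with median centring. The share of higher calls over all probes was 41.9%, 60.7% with processed intensities and 77.7% with median centring. Median centring turned the ratios of Col18a1 to 0.40 (adjusted p = 4.19e-06), Col4a3bp to 0.16 (adjusted p = 0.0828) and Timp3 to 0.47 (adjusted p = 5.70e-08). It also moved Col20a1 from -0.013 to 0.040. The cause was not tested.

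In the related lists, both channels were above background on both arrays for 16 collagen maturation genes, 15 other glycoproteins, 10 proteases and 14 receptors. Of these, 10, 11, 8 and 7 were lower with both channels required, against 33.0% of all probes. Higher were 1, 2, 0 and 4, against 29.0%. In a further 6, 10, 7 and 5 genes the ESlncRNA channel was above background on neither array. Processed intensities gave 2, 4 and 1 higher in the first 3 of these lists. Median centring gave 6, 4, 1 and 8 higher. Leaving out an array kept the sign of 63 of 66 member values, the exceptions being Timp3, Col20a1 and Col9a2, none of which passed. The ratio of a probe whose ESlncRNA channel is at background depends on how that background is handled, which limits the 10 lower genes given as bounds.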
